A study of Mus musculus with 18 samples.

Results

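The regions described are the internal exons of mouse protein-coding genes, set against the introns of the same genes. Of 308587 distinct exons of autosomal protein-coding genes in the GENCODE annotation of the NCBIM37 genome, 131527 were the first or last exon of a transcript and 42647 were internal but lay within 5 kb of a gene start. The other 134413, in 13126 of 21418 genes, were kept as members, although 24156 of them overlapped a first or last exon of another transcript. The introns of these genes, under the same distance from gene starts and free of any annotated exon, formed 147483 stretches. CpG methylation was read by whole-genome bisulfite sequencing (WGBS) in mouse embryonic stem cells (ESCs) with and without acute deletion of Dnmt1, in 9 control libraries, whose genotype label is wild type, and 9 Dnmt1 KO libraries. The time course ran over days 1, 3, 6, 9 and 11, and each genotype had 2 replicates a day, except day 6 with 1. All libraries carry the strain label E14, whereas the methods describe Dnmt1 loxP/loxP cells of strain C57BL/6, in which Cre recombinase was induced with tamoxifen. Which line the control libraries came from is thus not settled. Whether a difference between lines adds to that between genotypes was not tested. Cells grew in serum with LIF, with or without feeder cells. Nothing in the labels says that replicates are separate cultures, so p-values measure the spread between these libraries only.

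Most CpGs of the mouse genome are methylated on both strands. Dnmt1 is the maintenance methyltransferase, which methylates the new strand after replication, while Dnmt3a and Dnmt3b add methyl groups de novo. Bodies of transcribed genes are usually methylated, and in many tissues exons have been described as more methylated than the introns around them. Exons hold more CpGs per base than introns, and CpG-dense sequence is less methylated in general, so the classes have to be compared at equal CpG density.

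A few member exons, shown 5′ to 3′ on the coding strand, give a view of what was measured. They were chosen by their Dnmt1 KO level, so their levels are a description with no test. Among 165 exons of 120 to 250 bp that were coding throughout, held at least 6 CpGs, had at least 30 calls per genotype over days 6 to 11 and were at 70% or more in control, and leaving out chromosomes 8 and 18, they are the 3 with the highest and the 3 with the lowest Dnmt1 KO level. The first 3 sequences kept the most methylation and the last 3 the least, and each CpG is in capitals.
Iqsec1, chr6:90621974-90622113, minus strand: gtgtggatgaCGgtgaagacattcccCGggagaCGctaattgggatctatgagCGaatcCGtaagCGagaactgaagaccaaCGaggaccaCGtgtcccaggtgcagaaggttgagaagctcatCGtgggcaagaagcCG
Plekhm3, chr1:64929703-64929896, minus strand: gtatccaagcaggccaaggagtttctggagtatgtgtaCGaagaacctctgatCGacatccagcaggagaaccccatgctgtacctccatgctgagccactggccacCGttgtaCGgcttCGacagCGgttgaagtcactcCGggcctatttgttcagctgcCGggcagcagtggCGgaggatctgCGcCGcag
Cnksr3, chr10:3219698-3219906, plus strand: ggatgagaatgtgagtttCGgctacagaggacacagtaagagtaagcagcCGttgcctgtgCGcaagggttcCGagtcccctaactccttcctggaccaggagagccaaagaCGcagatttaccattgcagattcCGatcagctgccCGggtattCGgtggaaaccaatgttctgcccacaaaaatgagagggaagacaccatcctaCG
Zap70, chr1:36835962-36836157, plus strand: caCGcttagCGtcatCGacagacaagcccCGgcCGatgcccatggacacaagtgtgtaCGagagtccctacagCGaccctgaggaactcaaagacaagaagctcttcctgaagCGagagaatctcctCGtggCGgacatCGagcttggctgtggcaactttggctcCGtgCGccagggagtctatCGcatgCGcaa
Cdc14b, chr13:64316808-64317038, minus strand: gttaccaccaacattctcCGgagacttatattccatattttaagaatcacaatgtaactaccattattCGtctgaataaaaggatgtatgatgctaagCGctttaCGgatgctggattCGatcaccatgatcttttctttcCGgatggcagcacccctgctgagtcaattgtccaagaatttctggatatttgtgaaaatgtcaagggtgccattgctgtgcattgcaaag
Tsga10, chr1:37817794-37817940, minus strand: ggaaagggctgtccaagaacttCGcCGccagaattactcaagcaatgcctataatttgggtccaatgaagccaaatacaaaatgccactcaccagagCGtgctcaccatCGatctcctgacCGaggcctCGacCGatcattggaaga

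The exon of Iqsec1, an activator of Arf GTPases, had 27 of 35 calls methylated in Dnmt1 KO over days 6 to 11, or 77.1% (95% exact interval 59.9% to 89.6%), against 28 of 30 in control (93.3%). In the exon of Plekhm3, a protein with pleckstrin homology domains, 31 of 43 calls were methylated in Dnmt1 KO (72.1%, interval 56.3% to 84.7%) and 49 of 56 in control (87.5%). Its Dnmt1 KO libraries, with 6 to 10 calls each, ranged from 16.7% to 100%. The exon of Cnksr3, a signalling scaffold, stood at 64.5% of 31 calls in Dnmt1 KO (interval 45.4% to 80.8%) and at 97.3% of 37 calls in control. These 3 exons lie 9399, 73502 and 74157 bp from the nearest gene start, and between 4 and 5 of the 5 Dnmt1 KO libraries covered each of them. The libraries with calls ranged from 50% to 92.3% for the exon of Iqsec1 and from 40% to 80% for that of Cnksr3.

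At the other end, the exon of Zap70, a kinase of the T cell receptor, had 0 of 36 calls methylated in Dnmt1 KO, which allows a level of up to 8.33% if 3 calls are taken as the limit of a count of 0, and up to 9.74% by the 95% exact interval, whereas 42 of 44 calls were methylated in control (95.5%). The exon of Cdc14b, a phosphatase, fell to 1 of 33 calls (3.03%, interval 0.0767% to 15.8%) from 31 of 31 in control. The exon of Tsga10, a testis-specific gene, had 1 of 32 calls methylated (3.13%, interval 0.0791% to 16.2%) against 25 of 32 in control. Single Dnmt1 KO libraries with calls reached at most 16.7% for Cdc14b and 10% for Tsga10. The median of the 165 exons was 29.1% in Dnmt1 KO and 87.9% in control. In control the 6 exons stood between 78.1% and 100%, where at least 70% was a condition of the choice. No exon of the 6 had more than 17 calls in any Dnmt1 KO library. These intervals and limits cover counting error only, because calls of 1 read are not independent.

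Libraries held between 7190722 and 11158414 calls, of which 150035 to 260929 fell on exon CpGs. In the mitochondrial genome, which serves as the background of unconverted cytosines, 0.228% to 0.467% of CpG calls were methylated. Exon CpGs took 2.15% to 2.40% of autosomal calls in 17 libraries and 2.65% in control day 1 replicate 2, which stands apart. Without that library the mean control difference given below was 3.46 in place of 3.42 points. The deleted gene was checked first. Over the 37 member exons of Dnmt1 there were 596 calls in control and 575 in Dnmt1 KO. Among them, the neighbouring exons at chr9:20744920-20744998 and chr9:20745817-20746027 had 13 and 20 calls in the 9 control libraries and 0 in all 9 Dnmt1 KO libraries, where a count of 0 allows up to 3 calls. A level in such bulk DNA can come from a share of cells or from a share of CpGs in each cell, which cannot be told apart.

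The members were short and CpG-rich. Their median length was 124 bp, and 92.9% of their bases were coding. They held 500735 CpGs, or 2.51 per 100 bases, while the introns held 6308978 CpGs, or 0.843 per 100 bases. A median of 10 CpGs lay within 250 bp on either side of an exon CpG, the CpG itself included, and 6 around an intron CpG. Levels below are the percent of methylated calls, averaged over strata of this number so that exons and introns have the CpG density of exons, and differences are in percentage points.

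In control cells, exons were more methylated than introns of equal CpG density. Exons stood at 80.7% and 78.6% in the day 1 replicates, 79.0% and 78.9% at day 3, 82.0% at day 6, 80.0% and 77.9% at day 9, and 74.1% and 74.5% at day 11. Introns stood at 77.3% and 75.5%, 75.5% and 75.3%, 78.5%, 76.8% and 74.8%, and 70.5% and 70.8% in the same libraries. Exons were thus the higher class in 9 of 9 libraries, also at day 11, where both classes were at their lowest. The difference ranged from 3.09 to 3.71 points, with a mean of 3.42 ± 0.227 (SD, n = 9, exact permutation of signs, two-sided p = 0.0039, the smallest this test can give, Benjamini-Hochberg adjusted p = 0.0073 over 15 tests). Without matching for density the sign turned, and exon minus intron was -0.763 points (exact permutation p = 0.0039). The matched difference therefore holds between CpGs of equal CpG density, not between the classes as a whole. The gene, the distance from its start and the neighbouring bases were not matched in it.

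After deletion of Dnmt1, both classes lost most of their methylation and came closer together. Dnmt1 KO exons began at 73.1% and 73.7% on day 1 and were down to 36.1% and 37.3% on day 3. The single library of day 6 had 27.7%, those of day 9 had 28.0% and 29.4%, and those of day 11 had 27.8% and 28.7%. The introns went from 70% and 70.5% at day 1 to 35.5% and 36.5% at day 3, and then lay between 27.3% and 28.6%. No Dnmt1 KO library of days 3 to 11 overlapped with a control library in either class. Averaged over days, Dnmt1 KO minus control was -39.8 points in exons and -37.5 points in introns (exact permutation within days, n = 18, p = 0.00077 for each, the smallest possible, adjusted p = 0.0058).

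At day 1 the exon minus intron difference was still 3.087 and 3.212 points in Dnmt1 KO, while the lowest control library had 3.091. It had shrunk to 0.647 and 0.811 points by day 3. Thereafter the single day 6 library had 0.414, the day 9 replicates 0.298 and 0.745, and those of day 11 had 0.506 and 0.782. All 7 libraries of days 3 to 11 remained above 0 and below every control library. Their mean was 0.601 ± 0.198 points (SD, n = 7, exact permutation p = 0.016, the smallest possible, adjusted p = 0.018). Its size rested on the choice of introns and CpGs. It was 0.298 over 5 kb from every transcript start rather than gene start, 0.981 with only cytosines of at least 2 calls, and 1.69 against introns of the same gene and density class (exact permutation p = 0.016, 0.031 and 0.016).

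**Figure D1:**
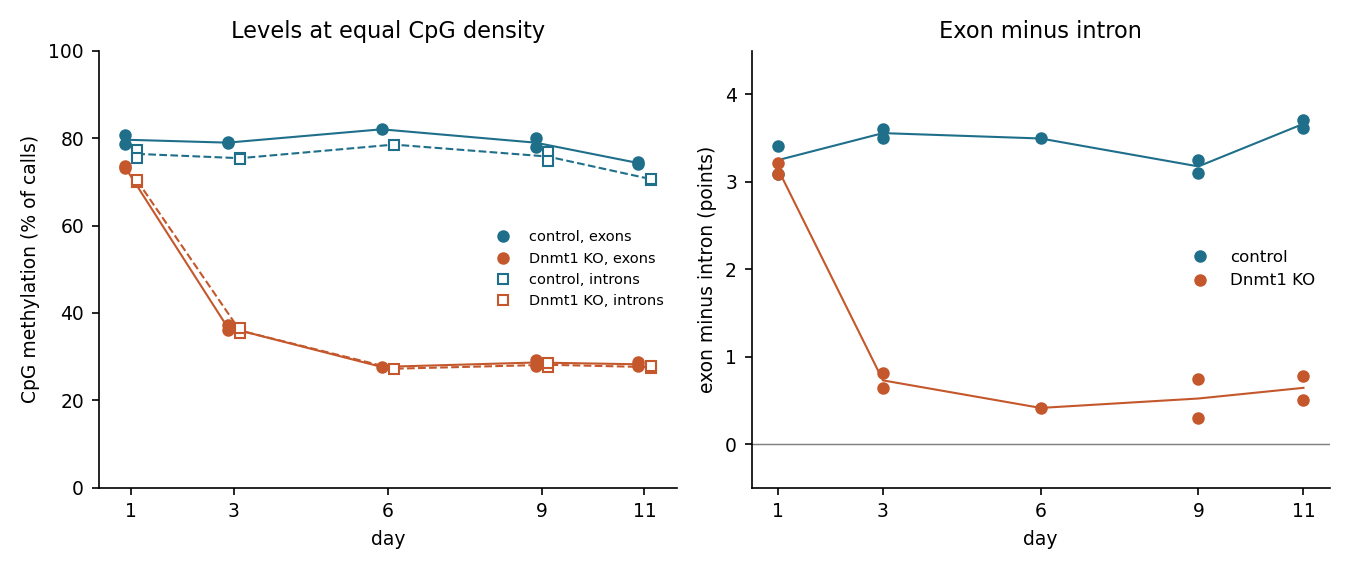
Left, CpG methylation (% of calls) of internal exons (filled circles) and introns (open squares) at equal CpG density by day in control (blue) and Dnmt1 KO (orange), with points for libraries and lines through the means of a day. Right, exon minus intron in percentage points, which stayed between 3.09 and 3.71 in control and was between 0.298 and 0.811 in Dnmt1 KO from day 3.

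Averaged over the 5 days, the exon minus intron difference was smaller in Dnmt1 KO than in control, with a change of -2.34 points (exact permutation within days, n = 18, p = 0.0015, adjusted p = 0.0073). Without matching for density the change had the opposite sign, 1.52 points (exact permutation, n = 18, p = 0.00077), with -40.5 points in exons and -42.1 in introns. At matched density, day 1 alone had a change of -0.0989 points, and the later days, in order, had -2.83, -3.08, -2.66 and -3.02. The mean change of days 3 to 11 differed from that of day 1 by -2.80 points (exact permutation within days, n = 18, p = 0.0039). Permuting genotype labels takes no genotype effect on any day as its null, so this p-value does not test whether the days differ. It was also outside the 15 tests and not adjusted. In points, the change was thus close to 0 at day 1 and larger in size on every later day.

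A difference in points becomes smaller when both levels fall, so the ratio of the levels was compared as well. The log2 ratio of exon to intron level was 0.064 ± 0.0057 in control (SD, n = 9) and 0.028 ± 0.0086 in Dnmt1 KO at days 3 to 11 (SD, n = 7). Its change over the 5 days was -0.030 (exact permutation, n = 18, p = 0.0046, adjusted p = 0.0077), and 0.052 without matching for density (p = 0.00077). This call also depended on which introns an exon was compared with. When exons were set only against introns of the same gene and density class, the difference was 2.83 points in control and 1.69 points in Dnmt1 KO, its change was -0.905 points (exact permutation, n = 18, p = 0.0039), and the log2 ratio changed by 0.025 in the other direction (exact permutation, n = 18, p = 0.00077). In this comparison, exons of a gene thus lost more points than its introns, while relative to their level they kept slightly more. The ratio within gene and density class was chosen after seeing the data, and its direction is opposite to that of the planned ratio.

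Introns within 1 kb of a member exon gave a closer comparison, with 1462823 CpGs. Exons exceeded them by 2.49 to 3.18 points in the 9 control libraries, with a mean of 2.89 ± 0.28 (SD, exact permutation p = 0.0039, adjusted p = 0.0073). In Dnmt1 KO at days 3 to 11 the excess was between 0.0237 and 0.767 points, with a mean of 0.319 ± 0.265 (SD, n = 7, exact permutation p = 0.016, adjusted p = 0.018). The change over days was -2.13 points (exact permutation, n = 18, p = 0.0031, adjusted p = 0.0073). Without matching for density, the control value was -1.19 points, the Dnmt1 KO value -0.317 and the change 0.818, each of the opposite sign. The Dnmt1 KO excess did not keep its call. It was 0.0404 with CpGs counted within 100 bp (exact permutation p = 0.75) and -0.0585 over 5 kb from every transcript start (exact permutation p = 0.53).

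The difference between exons and introns varied with CpG density, read here in 7 classes of the number of CpGs within 250 bp, with no matching inside a class. In control at days 6 to 11 it was 1.51 ± 0.299 points (SD, n = 5) where 1 to 2 CpGs lay within 250 bp, 2.45 ± 0.307 at 5 to 6 CpGs, 3.05 ± 0.493 at 10 to 14 and 6.71 ± 1.83 at 25 or more. In that densest class exons stood at 29.8% and introns at 23.1%, far below the 81.5% and 79.9% of the sparsest. Control exon levels fell only at the dense end, with 83.7% at 5 to 6 CpGs, 81.8% at 10 to 14 and 72.9% at 15 to 24. In Dnmt1 KO the largest differences were at both ends of the range, with 2.14 ± 0.6 points at 1 to 2 CpGs and 2.29 ± 1.37 at 25 or more. Between 5 and 14 CpGs, which took in most exon CpGs, it was -0.0723 ± 0.201 at 5 to 6, 0.092 ± 0.264 at 7 to 9 and 0.2 ± 0.217 at 10 to 14. In the sparsest class the Dnmt1 KO levels were 22.9% in exons and 20.8% in introns. The classes were not tested against each other or between genotypes.

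**Figure D2:**
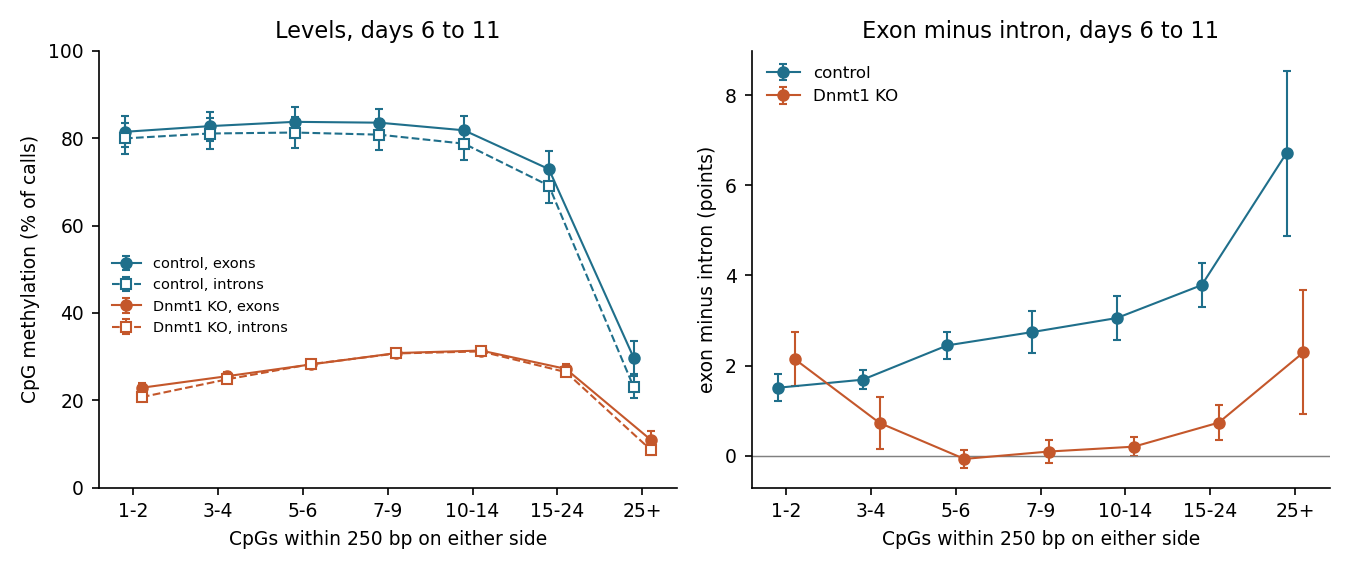
Left, CpG methylation (% of calls) of exons and introns at days 6 to 11 by the number of CpGs within 250 bp on either side. Right, exon minus intron in percentage points. Points are means and bars SD over 5 libraries per genotype. In control the difference grew from 1.51 to 6.71 points, and in Dnmt1 KO it was near 0 at 5 to 14 CpGs.

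The part of the exon and its place in the gene were also described without a test, matched only on these 7 coarser density classes, so the values cannot be set beside the overall differences above. Coding CpGs, 480315 in number, exceeded introns by 3.41 ± 0.218 points in control at days 6 to 11 and by 0.549 ± 0.217 in Dnmt1 KO (SD, n = 5 each), against 3.70 ± 0.259 and 0.653 ± 0.205 with the finer matching used above. The 20420 CpGs of internal exons that are not coding lay below introns instead, by -3.90 ± 0.549 points in control and -2.77 ± 1.2 in Dnmt1 KO. With distance from the start of their own gene, exon levels rose from 74.1% at 5 to 10 kb to 80.2% beyond 100 kb in control, and from 24.4% to 31.1% in Dnmt1 KO. Introns rose alongside, from 69.3% to 77.6% and from 23.1% to 30.2%, and the difference followed no steady course. In control it was 4.85 points at 5 to 10 kb, 4.39 at 10 to 20 kb, 3.62 at 20 to 50 kb, 4.25 at 50 to 100 kb and 2.61 beyond. In Dnmt1 KO the same classes had 1.30, 1.19, 0.902, 1.42 and 0.903 points. When each gene was divided into 3 equal parts, the difference was 4.03 points in the first part, 2.88 in the middle and 1.99 in the last in control. In Dnmt1 KO it was 0.529 ± 0.678, 0.00102 ± 0.368 and -0.0683 ± 0.259 points (SD, n = 5). Within parts of the gene, these Dnmt1 KO means were all smaller than the SD over libraries, and the last was below 0. In each of the 5 distance classes, by contrast, the Dnmt1 KO mean exceeded its SD. By exon length, the control difference was 1.64 points under 100 bp, 2.57 from 100 bp, 2.92 from 150 bp, 3.25 from 200 bp and 3.04 from 500 bp. The same length classes in Dnmt1 KO had 0.492 ± 0.37, 0.83 ± 0.238, -0.107 ± 0.325, -0.204 ± 0.529 and 0.245 ± 0.475 points.

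Around splice sites, where the spliceosome reads the intron's polypyrimidine tract at the acceptor and the GT at the donor, the excess over introns of equal density and neighbouring bases was read by distance. In control at days 6 to 11, the intron 10 to 25 bp before the acceptor had an excess of 0.454 ± 0.632 points (SD, n = 5), and the exon 25 to 50 bp after it 2.95 ± 0.191. Inside the exon the excess reached 3.72 ± 0.644 points at 75 to 100 bp from the acceptor. In Dnmt1 KO the intron 10 to 25 bp before the acceptor lay at -2.39 ± 0.326 points, below introns in general in 5 of 5 libraries, with a level of 26.3% over 35111 calls. On the other side of the exon, the first 10 bp of intron after the donor had an excess of 3.12 ± 0.581 points in Dnmt1 KO and 2.85 ± 0.81 in control, in 5 of 5 libraries each. From 25 to 50 bp after the donor the Dnmt1 KO excess was -0.892 ± 0.289 points. Inside the exon, the Dnmt1 KO excess was below 0 in 5 of 5 libraries at both edges, with -0.825 ± 0.239 points in the first 10 bp after the acceptor and -0.505 ± 0.303 in the last 10 bp before the donor. Between them it was -0.209 ± 0.512 points at 10 to 25 bp from the acceptor, above 0 in 2 of 5 libraries, and above 0 in 5 of 5 libraries with 0.798 ± 0.48 points at 25 to 50 bp from the acceptor and 1.06 ± 0.294 at 10 to 25 bp from the donor. At 100 to 200 bp from a splice site it was -0.355 ± 0.861 from the acceptor and -0.707 ± 0.552 from the donor. Introns farther out were also above 0 in Dnmt1 KO. From 500 bp to 1 kb the intron excess was 1.58 ± 0.182 points after the donor and 0.952 ± 0.0393 before the acceptor. Both were above 0 in 5 of 5 libraries. The inside of exons in Dnmt1 KO thus did not stand above all of the introns around them.

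**Figure D3:**
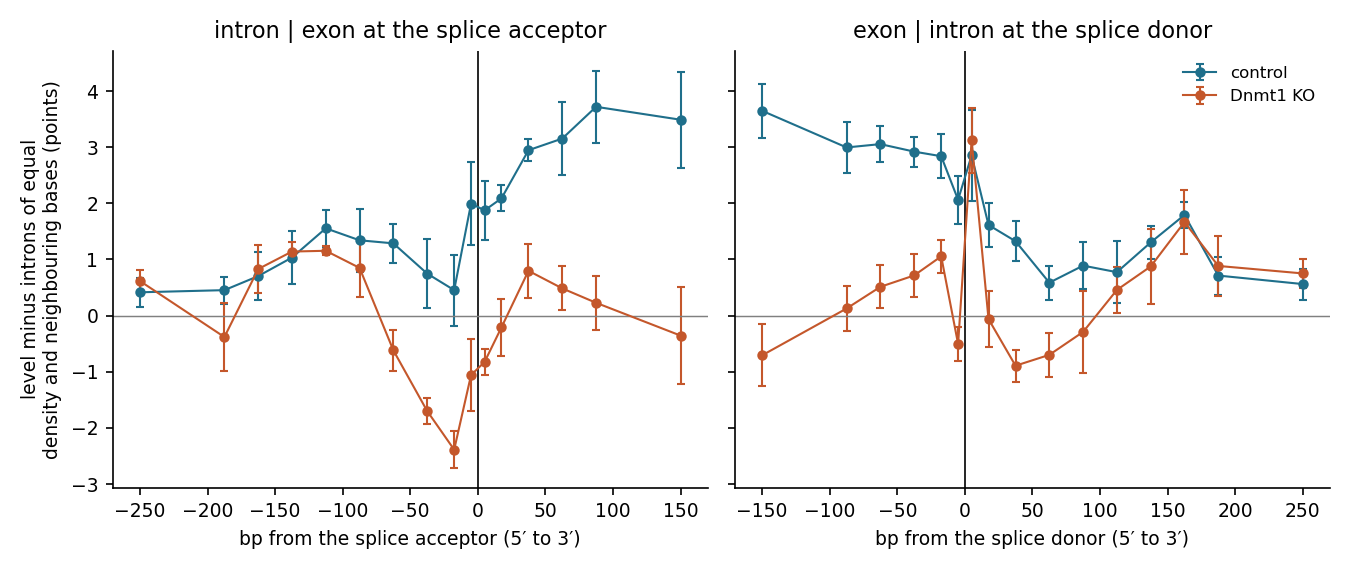
Methylation in excess of introns of equal CpG density and neighbouring bases (percentage points) by distance in bp from the splice acceptor (left) and donor (right), read 5′ to 3′. Points are means and bars SD over the 5 libraries of days 6 to 11 per genotype. In Dnmt1 KO the lowest value shown, -2.39, was 10 to 25 bp before the acceptor and the highest, 3.12, in the first 10 bp after the donor.

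Within coding sequence, the place of the CpG in the codon went with small differences. CpGs on codon positions 1 and 2, as in arginine codons that begin with CG, stood at 79.3% in control and 31.4% in Dnmt1 KO at days 3 to 11. At equal CpG density, CpGs on positions 2 and 3 were lower by -0.628 ± 0.257 points in control (SD, n = 9) and by -0.627 ± 0.143 in Dnmt1 KO (SD, n = 7). CpGs that span positions 3 and 1 of neighbouring codons were lower by -1.02 ± 0.189 and -0.972 ± 0.242 points. Each of these was below 0 in every library of its set (exact permutation of signs, p = 0.0039 for control and p = 0.016 for Dnmt1 KO, the smallest possible, adjusted p = 0.0073 and 0.018). The bases next to the CpG were not matched in these codon comparisons. By neighbouring bases, Dnmt1 KO exon levels at days 6 to 11 ran from 26.3% to 30.2%, a wider spread than the codon differences. Whether neighbouring bases account for the codon differences was not tested. The coding strand and the template strand of exons were at 79.6% each in control, with a difference of 0.0109 ± 0.428 points (exact permutation, n = 9, p = 0.94). In Dnmt1 KO at days 3 to 11 the difference was -0.251 ± 0.503 points, above 0 in 3 of 7 libraries (exact permutation p = 0.25). No strand difference was detectable at this depth.

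Single exons spread widely. Of the members, 86.7% had a call in some library of days 6 to 11, but only 5942 had at least 20 calls in each genotype. In control, the middle 80% of these lay between 38.3% and 95.6% with a median of 83.3%, and 238 (4.01%) were at 10% or less. In Dnmt1 KO the middle 80% lay between 5.13% and 48.7% with a median of 26.2%. At 60% or more stood 4915 of the exons (82.7%) in control and 196 (3.30%) in Dnmt1 KO, and 1023 (17.2%) were at 10% or less in Dnmt1 KO. With 20 calls, counting error alone spreads a level over many points, so the share of this spread that belongs to the exons was not tested.

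**Figure D4:**
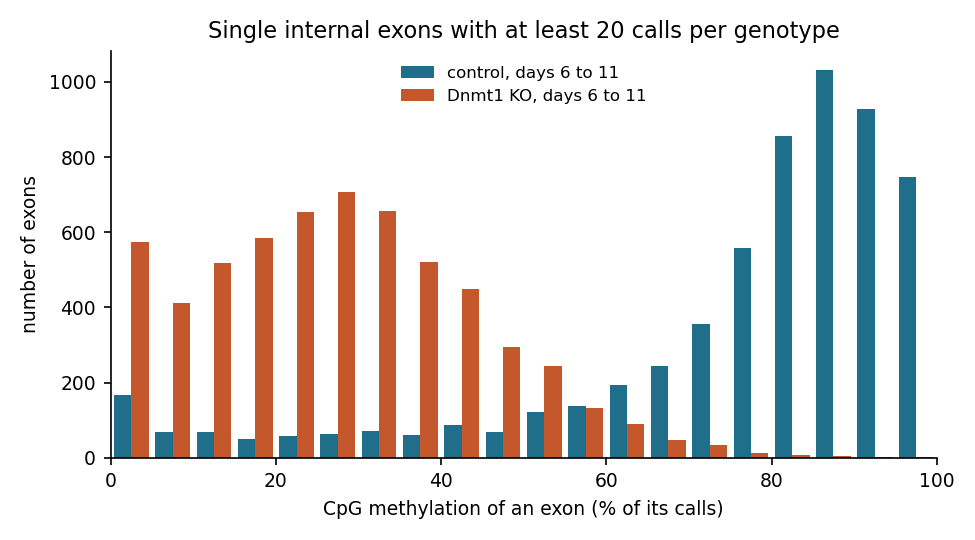
Number of internal exons by CpG methylation (% of the calls of an exon) over days 6 to 11, for the 5942 exons with at least 20 calls in control (blue) and in Dnmt1 KO (orange). The medians are 83.3% and 26.2%.

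Differences were next read gene by gene. For 2379 genes with at least 10 exon calls and 10 intron calls in every library, exons were compared with introns after taking from each its excess over introns of equal density. In control, exons were higher than introns in 369 genes (15.5% of genes tested) and lower in 45 (1.89%), at an adjusted p under 0.05 (limma) and 5 points or more. The median gene differed by 3.64 points, and 1867 of the 2379 genes lay above 0. Without taking density out, 144 genes were higher and 138 lower, and against introns within 1 kb 140 were higher and 26 lower. With at least 20 calls in place of 10, the counts were 197 and 13 of 928 genes.

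The 5 largest control differences upward were in Lrrc8a, Cdh1, Lmtk3, Pcdh1 and Plec. In Cdh1, the gene of the adhesion protein E-cadherin on chromosome 8 (109127251 to 109194146), exons stood at 86.1% of 497 calls and introns at 53.4% of 3815 calls. Its exons ranged from 79.5% to 90.5% over the 9 control libraries and its introns from 46.9% to 58.5%, with no overlap. With density taken out the difference in Cdh1 was 37.7 ± 3.06 points (SE, limma, adjusted p = 3.55e-11). In Lrrc8a, a subunit of the volume-regulated anion channel, on chromosome 2 (30093235 to 30137668), exons were at 83.7% and introns at 75.3%, and the difference was 40.7 ± 4.35 points (SE, limma, adjusted p = 1.17e-08). The exons of Lrrc8a ranged from 40% to 100% over the control libraries and its introns from 69.1% to 83.2%, so the ranges overlapped. Pcdh1, a protocadherin, had 79.5% in exons and 73.5% in introns, and a difference of 36.8 points with density taken out. In Lrrc8a and Pcdh1, most of the difference thus appears only once CpG density is taken out. In Plec, which encodes the cytoskeletal linker plectin, and in Lmtk3, a kinase, the exons were not higher as read. Exons of Plec stood at 50.1% and introns at 51.5%, and those of Lmtk3 at 39.6% and 43.8%, and their differences of 35.7 and 36.9 points appear only once CpG density is taken out.

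The 5 largest control differences downward were in Lck, Enah, Plekha4, Stox1 and Trim2. In Lck, a kinase of T cells, on chromosome 4 (129225588 to 129250885), exons stood at 32.1% and introns at 72.6%. The exons of Lck ranged from 7.32% to 53.1% over the libraries and the introns from 63.2% to 78.8%, again with no overlap, and the difference was -31.9 ± 4.45 points (SE, limma, adjusted p = 2.27e-06). Enah, an actin regulator, had 32% in exons and 74.2% in introns, and Trim2, a ubiquitin ligase, had 25.6% and 68.8%. Plekha4 and Stox1 had 40.3% and 46.9% in exons against 71.8% and 78.7% in introns. In Plekha4 the ranges over libraries overlapped, with 0% to 66.7% in exons and 54.7% to 82.9% in introns. Internal exons of these genes were thus the less methylated part of the gene body in control.

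In Dnmt1 KO at days 6 to 11, exons were higher in 25 genes (1.05% of genes tested) and lower in 3 (0.126%). Limma with an unadjusted p under 0.05 gave 322 genes in either direction there and 690 in control. The median SE was 4.76 points in Dnmt1 KO and 3.48 in control, and the Dnmt1 KO contrast rests on 5 libraries, so counts of calls in the genotypes are not comparable in size. Of the 25 genes, 21 were also higher in control, which is 84% of the Dnmt1 KO genes and 5.69% of the control genes. Of all genes tested, 15.5% were higher in control. None of the 3 lower genes was lower in control, but with 1.89% of all genes tested lower there, so few genes show nothing by this. Leaving out replicate 1 of day 9 of Dnmt1 KO gave 12 higher genes and 0 lower. Without weights for the calls the counts were 4 and 0, without taking density out 40 and 10, and against introns within 1 kb 13 and 6.

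The 5 largest were in Lrrc8a, Map3k4, Kank1, Dlg4 and Iqsec1. In Kank1, an adaptor of focal adhesions, on chromosome 19 (25311465 to 25508987), Dnmt1 KO exons stood at 53.6% of 334 calls and introns at 34.0% of 5014 calls. The exons of Kank1 ranged from 35.9% to 63.8% over the 5 libraries and the introns from 31.8% to 37.6%. The difference in Kank1 was 29.8 ± 3.92 points in Dnmt1 KO (SE, limma, adjusted p = 1.25e-05) and 26.0 ± 2.88 in control. Map3k4, a kinase of stress signalling, had 53.4% in exons and 30% in introns, and Iqsec1, whose exon is shown above and shares these calls, had 52.3% and 24%. Dlg4, the synaptic scaffold PSD-95, had 38.0% and 17.4%, and Lrrc8a 43.1% and 22.2%. The 3 genes with lower exons were Synpo2, an actin-binding protein, at 9.41% in exons and 28.8% in introns, Tep1, a telomerase-associated protein, at 17.1% and 31.7%, and Vps13d, a lipid transfer protein, at 23.5% and 31.2%. In control their exons and introns differed by 1.73, -0.846 and -0.262 points with density taken out.

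The change of the exon minus intron difference between Dnmt1 KO and control at days 6 to 11 was called in 10 genes, all downward (0.42% of genes tested). No gene was called upward (0%), and limma with an unadjusted p under 0.05 gave 263 genes. A difference in points becomes smaller when both levels fall, and no ratio was fitted by gene. The downward direction of these calls therefore cannot be told apart from the fall in levels itself. The 5 largest were Plec, Zbtb20, Ahdc1, Prrc2b and Zfp423. In Ahdc1, which encodes an AT-hook protein, on chromosome 4 (132567175 to 132634025), exons and introns stood at 61.1% and 43.9% in control at days 6 to 11 and at 16.7% and 12.8% in Dnmt1 KO. The change in Ahdc1 was -25.7 ± 4.91 points (SE, limma, adjusted p = 0.0058). Plec went from 59.4% and 48.7% to 15% and 16.2%, with a change of -29.0 ± 5.03 points (SE, limma, adjusted p = 0.0023). Zfp423, a zinc finger transcription factor, went from 79.8% and 73.9% to 21.8% and 27.6%, and its change was -23.9 ± 4.38 points. Zbtb20, a further zinc finger factor, went from 86.4% and 81.9% to 22.1% and 25.4%, and its change was -26.8 points. Prrc2b went from 75% and 60.3% to 21.5% and 18.4%, with a change of -24.4 points. Each of the 5 had exons above introns in control in this period. Over all control days Plec did not, with 50.1% in exons against 51.5% in introns. Without taking density out, the balance of directions turned, with 11 genes called upward and 3 downward. Against introns within 1 kb, 3 genes were called downward, and with at least 20 calls 17 of 928. The count also rested on single libraries. Leaving out the day 6 library of either genotype gave 1 gene. Leaving out replicate 2 of control day 11 gave 4, replicate 1 of control day 9 gave 6, and replicate 1 of Dnmt1 KO day 9 gave 5. With all libraries but no weights for the calls, the count was 0, with 230 genes at an unadjusted p under 0.05 (limma).

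**Figure D5:**
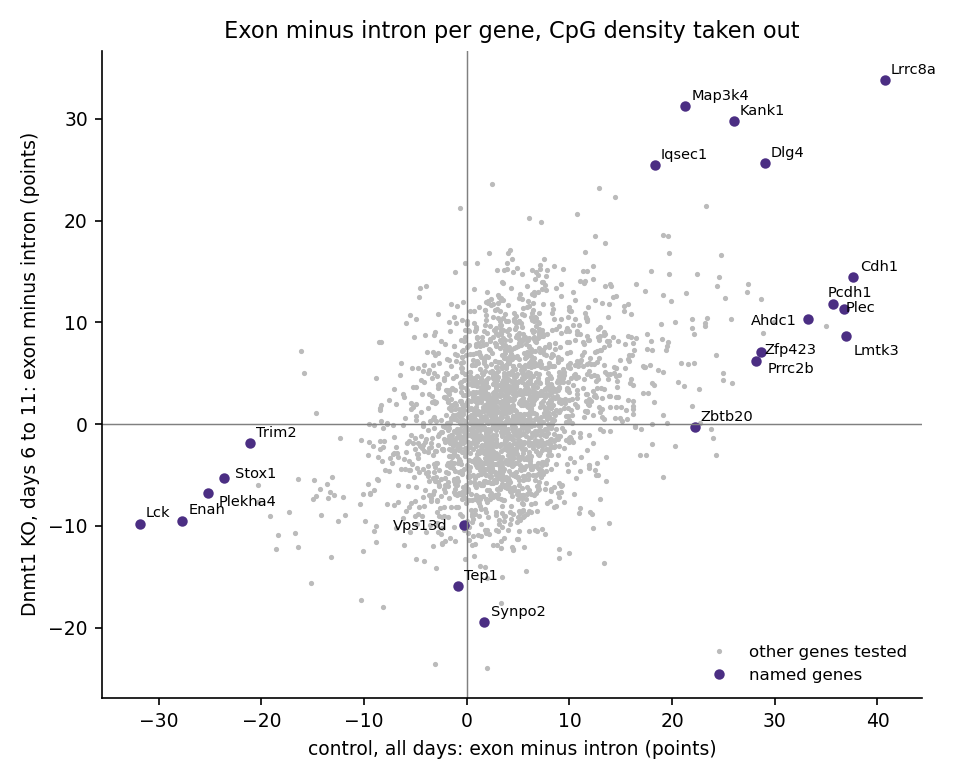
Exon minus intron per gene in percentage points with CpG density taken out, in control over all days (x axis) and in Dnmt1 KO over days 6 to 11 (y axis), for 2379 genes. The named genes are marked. Lrrc8a, at 40.7 and 33.8 points, lies farthest to the upper right, and Lck, at -31.9 and -9.76, farthest to the left.

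Gene families with many internal exons were described by their members. Across all 2379 genes tested the median difference was 3.64 points in control and 0.889 in Dnmt1 KO. Of 32 collagen chains tested, 5 were higher in control, and the median was 3.8 points in control and 1.01 in Dnmt1 KO. The myosin heavy chains, motors of actin, had 6 of 33 higher in control, with medians of 3.88 and 1.40. The 9 laminin chains, of the basement membrane, had 3 higher in control and medians of 4.81 and 4.22. Their exons stood at 33.2% and their introns at 25.8% in Dnmt1 KO, with exons above introns in 5 of 5 libraries, as over all genes tested, where they stood at 30.2% and 28.6%. Plexins, receptors of semaphorins, had 1 of 7 higher in control and medians of 5.19 and 3.33. The calcium and sodium channel alpha subunits had 5 of 18 higher, with medians of 5.45 and 2.57. Their summed control exon level of 78.6% lay below that of their introns, 81.0%. The same held over all genes tested, with 80.6% and 80.9%, and in the myosin heavy chains, with 78.7% and 79.4%.

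The 12 dynein heavy chains with Dnah symbols, which drive cilia, had 1 gene higher in control and medians of 3.22 and 0.872. The 29 ABC transporters had 2 higher and medians of 3.26 and -0.291. Integrin chains had 1 of 18 higher and medians of 2.36 and 0.267. Of 28 chromatin remodellers and histone-modifying enzymes, 5 were higher in control, 1 changed downward, and the medians were 4.48 in control and -0.927 in Dnmt1 KO. No member of the 9 families was called in Dnmt1 KO in either direction, and none was lower in control. Of all genes tested, 1.05% were higher and 0.126% lower in Dnmt1 KO, 1.89% were lower in control and 0.42% changed downward, so few or no calls among so few genes show nothing particular to a family. The shares higher in control lie on both sides of the 15.5% of all genes tested.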

How the data were processed

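WGBS was read in 18 libraries. The authors used Trim Galore on the read pairs, mapped with Bismark to NCBIM37, dropped duplicates and extracted CpG calls, as their methods describe. The submitters' processing notes name Bismark 0.12.3, another version than the methods. The deposited tables hold counts of methylated and of unmethylated calls per cytosine, with no normalization, and a deposited percent, which was checked to equal the share of methylated counts and not used further. A coverage minimum before deposition is not stated in them. Libraries held 7190722 to 11158414 calls, mostly 1 per cytosine, so calls were summed over classes.

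Listed positions that are no CpG of NCBIM37 were dropped, and calls of either strand were summed, except where strands were compared. Members and introns were taken from GENCODE vM1. The members, gene families and tests were chosen with earlier results of these data known. Levels were averaged over strata of 1 to 30 CpGs within 250 bp on either side, with above 30 pooled, weighted by the CpGs of exons. Signs of the differences per library were flipped in all arrangements (512 for 9 libraries, 128 for 7), and genotype labels were permuted within days (2592 arrangements). All tests are two-sided.

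Genes were fitted in R 4.3.3 with limma 3.58.1 on exon minus intron excess, with a mean per genotype and day, weights from calls and all libraries sharing the spread, so that the lone libraries of day 6 were assumed to vary like the others. The named genes are the 5 with the largest difference in each direction among those called. Families were taken by symbol. Matching, exact tests and gene calls were tested on simulated data. Python 3.11.15, numpy 2.4.6, pandas 2.3.3 and scipy 1.17.1 were used. Alternatives are given in the closing section.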

Additional observations from a re-analysis of the deposited data

Results flagged for a closer look

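The exon minus intron difference was not the same in both genotypes. Averaged over days it was smaller in Dnmt1 KO by a change of -2.34 points, and the change of days 3 to 11 differed from that of day 1 by -2.80 points (exact permutation within days, n = 18, p = 0.0015 and p = 0.0039). Against introns within 1 kb the same values were -2.13 and -2.69 points (exact permutation, n = 18, p = 0.0031 and p = 0.0023). The later p-value of each pair has no genotype effect on any day as its null and was not adjusted. It therefore does not test whether the days differ. No group of a genotype and day held the 4 libraries needed to look for a library far from the others.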

How the results depend on the processing

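Without CpG density matching the direction turned in control (-0.763 points), in the change between genotypes (1.52), in the change of the log2 ratio (0.052) and, against introns within 1 kb, in control (-1.19), in Dnmt1 KO (-0.317) and in the change (0.818). The log2 ratio also turned within gene and density class (0.025), an alternative chosen after seeing the data, and the cause was not tested. The Dnmt1 KO excess over introns within 1 kb lost its call with CpGs counted within 100 bp (0.0404), with neighbouring bases matched (0.259), with at least 2 calls per cytosine (0.602) and with 5 density classes (0.201, added after seeing the data), and turned over 5 kb from transcript starts (-0.0585). All other results on class levels kept direction and call in the alternatives run. Without each library in turn no call on class levels changed, and the direction turned only for the control strand difference, which was not called (-0.0768 to 0.0825). The control exon minus intron difference was then 3.38 to 3.46 points and that of Dnmt1 KO 0.565 to 0.651. In the replicate block, with labels swapped only within pairs of a day and replicate number, the change of -2.34 points had an exact permutation p of 0.0078 and no call on class levels changed. Deviations of same-numbered libraries correlated between -0.021 and 0.0066 over 946 genes at days 1, 3, 9 and 11. At this depth, so low a correlation cannot show whether libraries of the same number were paired.

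Gene counts moved more. With the plain difference, 144 genes were higher and 138 lower in control, 40 and 10 in Dnmt1 KO, and 11 changed upward and 3 downward. A minimum of 20 calls left 928 genes, with 197 higher and 13 lower in control and 17 changed downward. Without weights, 4 were higher and 0 lower in Dnmt1 KO and 0 changed downward. Against introns within 1 kb, 140 were higher and 26 lower in control, 13 and 6 in Dnmt1 KO, and 3 changed downward. In the replicate block 1 gene changed upward and 13 downward. Without each library in turn, 280 to 384 genes were higher and 31 to 46 lower in control, 12 to 30 higher and 0 to 4 lower in Dnmt1 KO (lowest without Dnmt1 KO day 9 replicate 1), and 0 to 1 changed upward and 1 to 13 downward. Leaving out masked repeats was not run, as the reference marks none. With 1 or 2 calls per cytosine, depth limits statements to sums over many CpGs.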

Other observations

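The bases next to the CpG, which the report did not describe, went with the difference between exons and introns at days 6 to 11, matched on 7 classes of CpG density. Joined over strands, CpGs flanked by C on both sides had the largest control difference of the 10 classes, 4.96 ± 0.423 points (SD, n = 5), followed by CpGs preceded by C and followed by G with 4.56 ± 0.591. CpGs preceded by G and followed by C had the smallest, 1.21 ± 0.209. In Dnmt1 KO the class with G before and C after was below introns in 5 of 5 libraries, at -2.13 ± 0.6 points, with exons at 28.5% and introns at 30.6%. The class with C before and G after was above introns, by 1.81 ± 0.298 points, with 30.2% against 28.4%. The classes with A before and C after lay at -0.854 ± 0.457 points in Dnmt1 KO and 1.40 ± 0.536 in control. Matching on these classes together with density left the overall differences at 3.18 points in control and 0.652 in Dnmt1 KO at days 3 to 11. These values were not tested against each other.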
